A study of Sus scrofa with 8 samples.

Results

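Cathepsins and prosaposin are proteins of the lysosome, the acidic compartment in which cells break down protein and lipid. The genes were chosen by symbol: CTSB, CTSD, CTSH, CTSK, CTSL, CTSS and CTSZ, which encode cathepsins, and PSAP, which encodes prosaposin. Of these 8 genes, 7 had a gene ID among the 22676 pig gene IDs of the expression table, namely 6 cathepsins and PSAP. CTSD, an aspartic protease, matched no ID under that name and was not analysed here. The IDs were ENSSSCG00000010281 for PSAP, ENSSSCG00000023666 for CTSB, ENSSSCG00000007522 for CTSZ, ENSSSCG00000006647 for CTSK, ENSSSCG00000001770 for CTSH, ENSSSCG00000006648 for CTSS and ENSSSCG00000010948 for CTSL.

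Cathepsins are made as inactive proenzymes, carried to the lysosome and activated by cleavage in its acid lumen. Prosaposin is the precursor of the saposins, small proteins that present sphingolipids to lysosomal hydrolases, and it is itself cut by cathepsins. In adipose tissue, cathepsin transcripts are known from macrophages as well as from fat cells and their precursors, and cathepsins K, L and S are known in human and mouse fat for their action on the extracellular matrix. N6-methyladenosine (m6A) is a methyl mark within RNA that is often found near stop codons and in 3' untranslated regions (UTRs).

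Adipose tissue was taken from 4 male pigs at an age of 180 days: 2 Landrace pigs, a lean breed, and 2 Jinhua pigs, a fat one. Each animal gave 1 input library, whose deposited gene levels were taken as FPKM (fragments per kilobase, scaled to library size), and 1 m6A immunoprecipitation (IP) library, whose peaks were deposited as positions on transcripts. The question was whether transcript level and m6A peaks differed between the breeds, and with 2 animals a breed a permutation test of 1 gene (exact, two-sided) could not go below p = 0.333. The p-values below are therefore those of limma, a moderated test fitted across all 13693 genes with a mean FPKM of at least 1, on log2(FPKM + 1), and all differences are Jinhua minus Landrace.

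Read depth is unknown for these libraries. A single gene ID, the same in every library, held 63.2% and 73.8% of the FPKM sum in Landrace replicates 1 and 2. It held 40.1% and 51.0% in Jinhua replicates 1 and 2. The FPKM sums ran from 1.54e+06 in Jinhua replicate 1 to 4.14e+06 in Landrace replicate 2, which limits comparisons of FPKM between libraries. The number of genes with an FPKM of at least 1 ranged from 12742 to 13462, and the number of peaks from 8909 in Landrace replicate 1 to 20688 in Jinhua replicate 1. The tissue label was checked against adipocyte markers: all 9 with an ID were above 0 in every library, and their FPKM summed to 15248 and 8743 in Landrace replicates 1 and 2 and to 7086 and 9877 in Jinhua replicates 1 and 2. Landrace replicate 2 stood apart by skeletal muscle markers, whose 9 IDs were all highest there and summed to 3057, against 84.5, 88.3 and 140.3 in Landrace replicate 1 and Jinhua replicates 1 and 2. The values of the cathepsins and PSAP without that animal are therefore given beside the breed comparison.

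All 7 genes were well expressed in the input libraries, and all 7 passed the filter on low values. On the FPKM scale, which corrects for gene length, they fell in the order PSAP, CTSB, CTSZ, CTSK, CTSH, CTSS and CTSL by their mean over the 4 libraries. PSAP lay at the 98.6th percentile of the mean levels of the tested genes, CTSB at 98.1, CTSZ at 97.5, CTSK at 94.98, CTSH at 94.5, CTSS at 86.8 and CTSL at 82.7. Together the 7 genes summed to 1974 and 2603 FPKM in Landrace replicates 1 and 2 and to 2008 and 2318 in Jinhua replicates 1 and 2. PSAP alone held 36.2%, 32.5%, 28.1% and 37.9% of these sums in the same order of libraries.

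The steps in this order differed in how many libraries kept them. CTSZ was above CTSK in 4 of 4 libraries, by 1.21 ± 0.996 on the log2 scale (SD, n = 4 libraries), and CTSH was above CTSS in 4 of 4, by 1.61 ± 0.67. The order was set by the means of the same 4 libraries, so these counts are a description with no test. The other neighbours kept their order in 3 of 4 libraries each. PSAP was above CTSB by 0.42 ± 0.45, CTSB above CTSZ by 0.41 ± 0.83, CTSK above CTSH by 0.12 ± 0.21 and CTSS above CTSL by 0.47 ± 0.77 (log2 ratio, SD, n = 4 libraries). Of these 4 mean log2 ratios, each was smaller than its own SD.

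**Figure D1:**
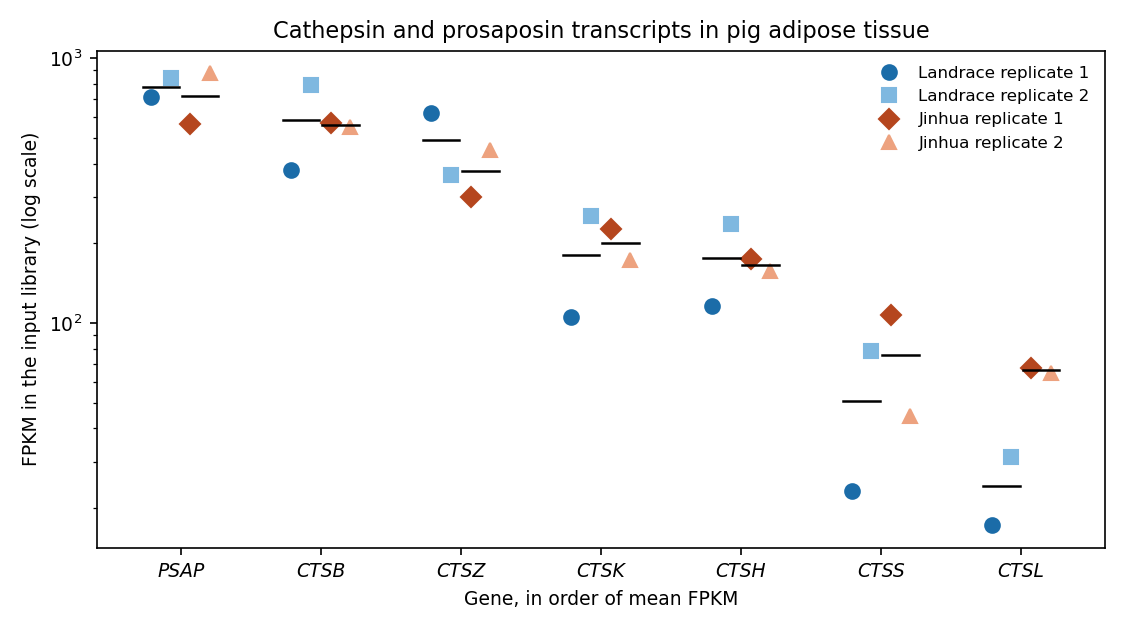
FPKM of PSAP and the 6 cathepsins in each of the 4 adipose input libraries, on a log scale, in order of mean level; each marker is 1 animal and each black line the mean of a breed (n = 2). The breeds overlap for 6 genes, and only for CTSL do both Jinhua animals (67.7 and 64.9) lie above both Landrace animals (17.2 and 31.1).

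No cathepsin and not PSAP passed the test between the breeds. By limma with Benjamini-Hochberg adjustment, 0 of 7 were called at an adjusted p under 0.05, where 5 of 13693 tested genes (0.0365%) were. At an unadjusted p under 0.05 the count was 1 of 7, CTSL, where 9.72% of all tested genes passed, 801 higher and 530 lower. CTSL was also the gene whose breeds did not overlap, with both Jinhua animals above both Landrace animals. That pattern held for 30.2% of all tested genes, and the opposite one, both Jinhua below both Landrace, held for 18.1% of all tested genes and for 0 of the 7. The median difference of the 7 genes was 0.03 on the log2 scale with 5 above 0 and 2 below, beside a median of 0.15 and 58% above 0 over all tested genes. Median-ratio scaling of the libraries moved the median of all tested genes to -0.0038 and the unadjusted calls to 501 higher and 708 lower, and the CTSL difference stayed above 0.

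CTSL encodes cathepsin L, an endopeptidase that degrades a broad range of proteins in the lysosome. Its FPKM was 17.2 and 31.1 in the Landrace pair and 67.7 and 64.9 in the Jinhua pair. The lower Jinhua value was thus above the higher Landrace value, and the breed means were 24.2 ± 9.83 and 66.3 ± 1.95 (SD, n = 2). The log2 difference was 1.48 (SE 0.40, 95% interval 0.39 to 2.56), with an unadjusted p of 0.0183 and an adjusted p of 0.496 by limma. Because the breeds did not overlap, leaving out any 1 animal could not change the sign of this difference. Its size was then between 1.07 and 1.88, and it was 1.88 without Landrace replicate 2. CTSL has a close paralog, CTSV, to which the RefSeq gene table (Sscrofa11.1) gives CTSL as a synonym although it also lists a separate CTSL gene. How the authors' quantification shared reads between the pair is not given in the sources used here, so the CTSL level is uncertain in that respect.

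CTSS encodes cathepsin S, which acts on the invariant chain of MHC class II in antigen-presenting cells. Its FPKM was 23.3 and 78.2 in the Landrace pair and 106.9 and 44.6 in the Jinhua pair. The highest and the next lowest of these values were both from Jinhua pigs, and the breed means were 50.7 ± 38.8 and 75.8 ± 44.0 (SD, n = 2). The log2 difference of 0.68 had a 95% interval of -1.39 to 2.75 (limma, adjusted p 0.702). It moved to -0.17 without Landrace replicate 1, to 1.53 without Landrace replicate 2 and to 0.06 without Jinhua replicate 1.

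CTSK encodes cathepsin K, a collagen- and elastin-degrading protease best known from osteoclasts. In the RefSeq gene table it is the direct neighbour of CTSS. Its FPKM was 105.8 and 254.7 in the Landrace pair and 227.3 and 173.2 in the Jinhua pair. Both Jinhua values lay between the Landrace values, and the means were 180.2 ± 105.3 for Landrace and 200.3 ± 38.2 for Jinhua (SD, n = 2). The log2 difference was 0.27, with an interval of -1.22 to 1.76 (limma, adjusted p 0.843), and became -0.36 without Landrace replicate 1 and 0.90 without Landrace replicate 2.

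CTSB and CTSH had nearly the same profile across the animals. CTSB encodes cathepsin B, an abundant lysosomal protease with endopeptidase and carboxypeptidase action, and its FPKM was 377.3 and 794.0 in the Landrace pair and 568.3 and 550.4 in the Jinhua pair. CTSH encodes cathepsin H, an aminopeptidase, and its FPKM was 116.1 and 236.1 in the Landrace pair and 174.9 and 157.8 in the Jinhua pair. For both genes the Landrace animals held the lowest and the highest value, with the Jinhua animals between them. The breed means of CTSB were 585.7 ± 294.7 and 559.3 ± 12.6, and those of CTSH 176.1 ± 84.9 and 166.3 ± 12.0 (Landrace and Jinhua, SD, n = 2). The log2 difference of CTSB was 0.03, with a 95% interval of -1.34 to 1.40 (limma, adjusted p 0.981). That of CTSH was 0.00, with an interval of -1.28 to 1.28 (adjusted p 0.998). Without Landrace replicate 1 both were -0.50, and without Landrace replicate 2 they were 0.57 and 0.51. Under median-ratio scaling of the libraries they were -0.15 and -0.17.

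CTSZ, which encodes the carboxypeptidase cathepsin Z, had another profile. Its FPKM was 619.1 and 362.2 in the Landrace pair and 299.0 and 449.8 in the Jinhua pair. Landrace replicate 1, the animal in which CTSB, CTSK, CTSH, CTSS and CTSL were at their lowest, held the highest CTSZ value. The breed means were 490.6 ± 181.7 and 374.4 ± 106.6 (SD, n = 2). The log2 difference was -0.37, with a 95% interval of -1.66 to 0.92 (limma, adjusted p 0.741). Leaving out Landrace replicate 1 gave 0.02, and leaving out Landrace replicate 2 gave -0.75.

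PSAP had the smallest range of the 7 genes, with a highest value 1.56 times its lowest, against 2.03 times for CTSH and 4.59 times for CTSS. Its FPKM was 715.0 and 846.3 in the Landrace pair and 564.4 and 877.7 in the Jinhua pair. The Jinhua animals held the lowest and the highest value, and the breed means were 780.7 ± 92.8 and 721.0 ± 221.5 (SD, n = 2). The log2 difference was -0.14, with a 95% interval of -1.31 to 1.02 (limma, adjusted p 0.896). It was 0.17 without Jinhua replicate 1 and -0.02 without Landrace replicate 2.

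**Figure D2:**
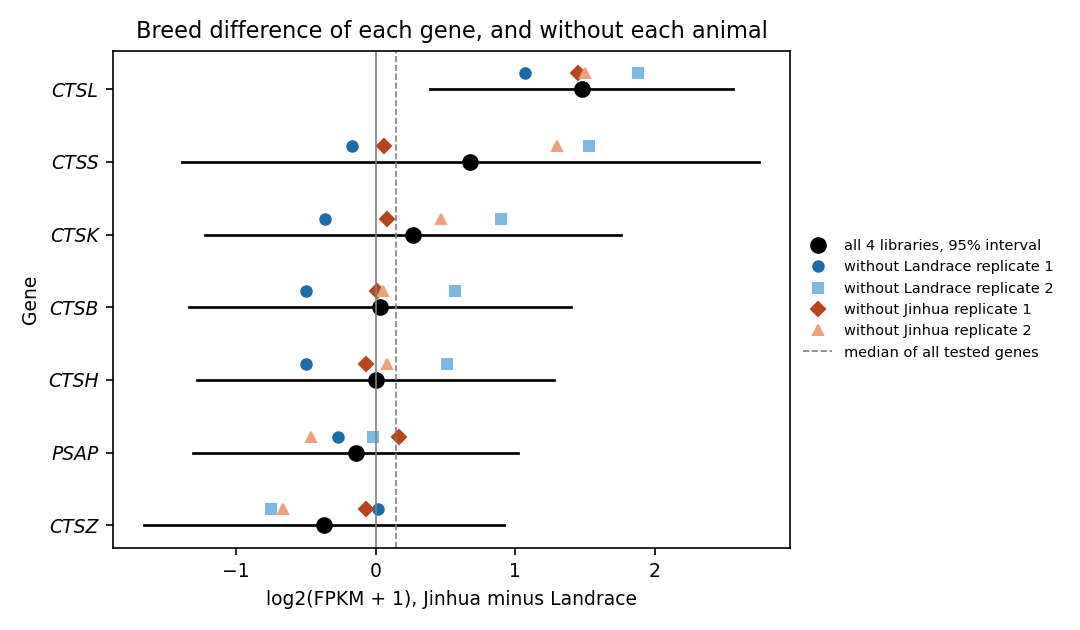
Difference in log2(FPKM + 1), Jinhua minus Landrace, for each gene (black point, with the 95% interval from limma) and the same difference with 1 animal left out (coloured markers); the solid line marks 0 and the dashed line the median of all tested genes, 0.15. The interval lies above 0 for CTSL alone (0.39 to 2.56), and without Landrace replicate 1 the point falls below 0 for CTSS, CTSK, CTSB and CTSH.

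The genes differed in how they followed each other over the 4 libraries, measured as the Euclidean distance between log2(FPKM + 1) profiles centred on their own means. Among the 21 pairs, CTSB and CTSH were the closest, at 0.0853, followed by CTSK and CTSH at 0.361 and CTSB and CTSK at 0.367. PSAP lay at 0.752 from CTSZ, and CTSZ and CTSS were the farthest apart, at 2.41. These distances are descriptions over 4 libraries of 4 animals and carry no test. Of 5521 other genes with a symbol and a mean FPKM of at least 10, the 5 nearest to the mean profile of the 7 genes were PREP, TP53RK, MRPL44, CNOT8 and EIF2S3, at distances of 0.0480, 0.0503, 0.0652, 0.0809 and 0.0875. PREP, which encodes prolyl endopeptidase, stood at 15.9 and 27.1 FPKM in the Landrace pair, against 27.3 and 24.8 in the Jinhua pair. CTSH itself lay at 0.330 from that mean profile, with 301 other genes nearer, and CTSZ at 1.35, with 4065 nearer.

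Markers of other cell types also varied between the libraries. The FPKM of 14 macrophage markers summed to 851.4, 1454, 1322 and 975.1 in Landrace replicates 1 and 2 and Jinhua replicates 1 and 2. The list did not vary as a whole. Both Jinhua animals were above both Landrace animals for 2 of the 14 and below them for 2, beside 30.2% and 18.1% of all tested genes. Of the 14, 5 were lowest in Jinhua replicate 2, C1QC among them, and 9 in Landrace replicate 1. Of the 7 genes described here, 5 were lowest in Landrace replicate 1. In the lists described below, 8 of 12 proton pump IDs and 12 of 22 lysosomal membrane and other hydrolase IDs were lowest there too. Only 3 of 12 sorting IDs and 1 of 9 adipocyte markers were. The share of all tested genes that were lowest, or highest, in a given library was not counted. The factor of median-ratio scaling was smallest in Landrace replicate 1, at 0.899, so a typical gene was low there too. It was 0.984 in Landrace replicate 2 and 1.112 and 1.018 in Jinhua replicates 1 and 2. Counts of genes lowest in Landrace replicate 1 are to be read with this limit. No macrophage marker was listed at 0, and the most abundant of them, C1QC, stood at 260.4, 338.7, 303.4 and 229.6 FPKM in the same order. The 9 fibroblast and progenitor markers summed to 3578, 12240, 3327 and 6216, and 6 of the 9 were highest in Landrace replicate 2, as were CTSB, CTSK and CTSH. The 8 lymphocyte markers summed to 55.1, 35.3, 38.2 and 17.5. The part of these cell types in the levels of the cathepsins and PSAP was not tested, and in bulk tissue fewer cells of a type and less RNA per cell cannot be told apart. Without Landrace replicate 2, the animal with the high muscle and fibroblast sums, the median difference of the 7 genes was 0.57 on the log2 scale. Without Landrace replicate 1 it was -0.27. Over all tested genes the medians in these 2 settings were 0.23 and 0.077.

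**Figure D3:**
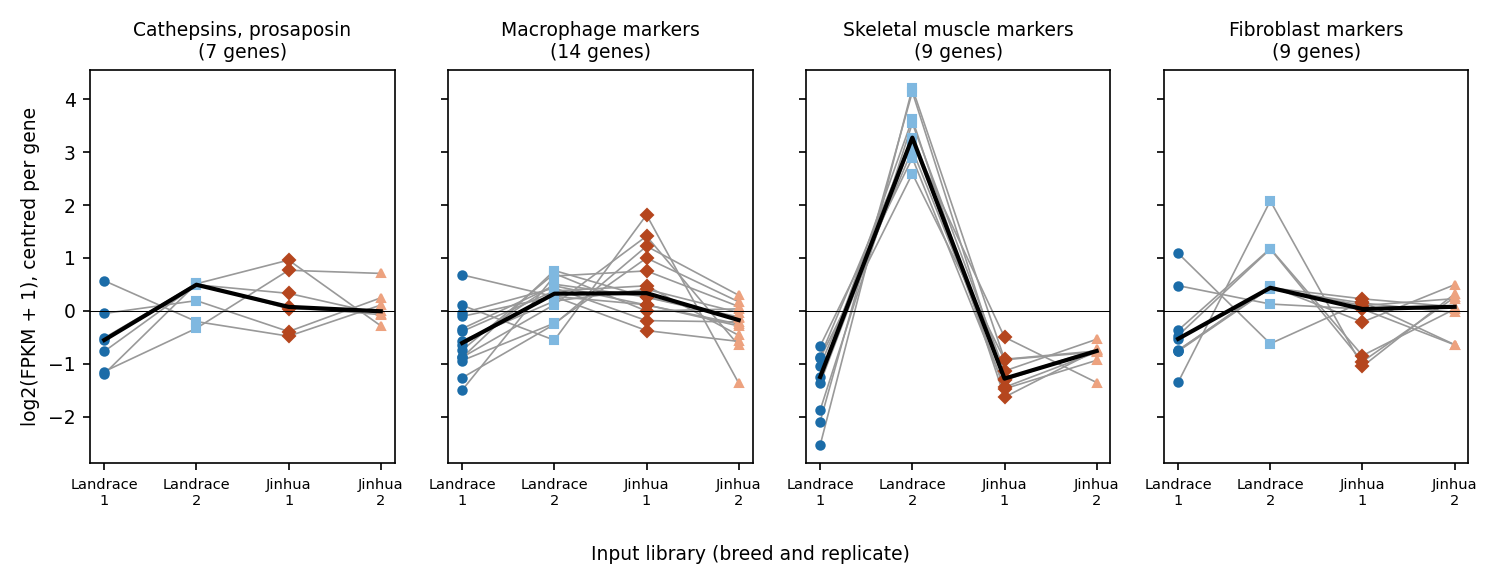
Input levels as log2(FPKM + 1), centred on each gene's mean over the 4 libraries, for the 7 cathepsin and prosaposin genes and for macrophage (14), skeletal muscle (9) and fibroblast (9) markers; grey lines are genes and the black line is the median of the list. Of the 7 genes 5 are lowest in Landrace replicate 1, and all 9 muscle markers are highest in Landrace replicate 2.

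The lysosomal pathway around these genes was read from lists of 67 gene IDs, of which 66 were tested and 0 passed by limma at an adjusted p under 0.05, with 3 at an unadjusted p under 0.05, where 9.72% of all tested genes passed. Their median log2 difference was 0.23, with 44 of 66 above 0, beside 0.15 and 58% over all tested genes. Both Jinhua animals were above both Landrace animals for 16 of the 66 and below them for 13, beside 30.2% and 18.1% of all tested genes. The counts of the single lists below are to be read against the same shares. Among the other cathepsins, 5 of 8 had an ID and all 5 had differences above 0, with overlapping breeds and a median of 0.35. CTSV, the paralog of CTSL, stood at 40.5 and 147.7 FPKM in the Landrace pair, against 272.0 and 90.5 in the Jinhua pair (log2 difference 1.01, limma, adjusted p 0.621). Like CTSS, it was lowest in Landrace replicate 1 and highest in Jinhua replicate 1. CTSO had the smallest difference of that list, 0.04.

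Of the inhibitors that hold cathepsins in check, 4 of 8 had an ID, with a median difference of 0.41 and 3 of 4 above 0. Both Jinhua animals were above for 2, CST6 and CST7 (the latter named after its values were seen), and below for 1, CST3. CST3, which encodes the secreted inhibitor cystatin C, was by far the most abundant, at 1689 and 1291 FPKM in the Landrace pair, against 772.2 and 1162 in the Jinhua pair. Its log2 difference was -0.64 (limma, adjusted p 0.563). CST6, at the other end of that list, had a difference of 0.81 at levels between 2.63 and 10.1 FPKM. Its lower Jinhua value, 3.14 in replicate 1, was barely above its higher Landrace value, 3.11 in replicate 2. For CST7 these values were 2.33 in Jinhua replicate 2 and 2.25 in Landrace replicate 2.

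The hydrolases that work with saposins or on sphingolipids gave 8 IDs of 11, with a median difference of 0.09, 6 above 0 and no ID whose breeds were apart. SMPD1, the acid sphingomyelinase, stood at 213.2 and 73.6 FPKM in the Landrace pair, against 54.7 and 102.4 in the Jinhua pair, and was highest in Landrace replicate 1, as CTSZ was. ASAH1, the acid ceramidase, had the largest difference of the list, 0.35, and was lowest in Landrace replicate 1, at 14.03 FPKM.

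Sorting receptors, adaptors and prosaposin partners had all 12 of 12 listed genes in the table, 11 of them tested, with a median difference of -0.28 and 7 below 0. Both Jinhua animals were above for 2 and below for 5 of these 11, beside 30.2% and 18.1% of all tested genes. SORT1, which encodes sortilin, a carrier of prosaposin to the lysosome, stood at 3.72 and 5.59 FPKM in the Landrace pair, against 8.18 and 12.1 in the Jinhua pair, a difference of 0.97 (limma, unadjusted p 0.0476, adjusted p 0.496). The adaptor gene GGA3 had the lowest difference, -0.78.

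Lysosomal membrane proteins and other hydrolases gave 22 IDs of 27, with a median difference of 0.24, 6 with both Jinhua animals above and 5 with both below, shares near the 30.2% and 18.1% of all tested genes. LGMN, which encodes legumain, a protease that processes cathepsins, stood at 58.5 and 181.1 FPKM in the Landrace pair, against 181.0 and 208.8 in the Jinhua pair. It too was lowest in Landrace replicate 1. GAA, the acid alpha-glucosidase, had the lowest difference of this list, -1.02.

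The proton pump that acidifies the lysosome gave 12 IDs of 15, 10 of them above 0, with a median of 0.36 and 5 of 12 with both Jinhua animals above, beside 58%, 0.15 and 30.2% over all tested genes. ATP6V1C1 stood at 12.9 and 23.8 FPKM in the Landrace pair, against 37.6 and 31.4 in the Jinhua pair, the largest difference of that list at 0.93, and ATP6V0C had the lowest, -0.26. Transcription factors of lysosomal genes gave 4 IDs, 2 of them for MITF, with a median difference of -0.28, 2 above 0 and 2 below. Both Jinhua animals were above for 1 of the 4 and below for 2. The ID ENSSSCG00000011514 of MITF stood at 10.5 and 28.5 FPKM in the Landrace pair, against 56.0 and 93.5 in the Jinhua pair (log2 difference 1.99, limma, adjusted p 0.496). The other MITF ID, ENSSSCG00000011512, did not show this. It stood at 3.37 and 3.91 FPKM in the Landrace pair, against 2.81 and 5.19 in the Jinhua pair (log2 difference 0.07, limma, adjusted p 0.941). TFEB stood at 18.3 and 9.46 against 5.56 and 3.95, a difference of -1.32 (adjusted p 0.496). Under median-ratio scaling the median of the 7 cathepsin and prosaposin genes was -0.15 and that of the sphingolipid hydrolases -0.08, so the sign of both depended on the scaling.

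All 7 genes carried m6A peaks. Peaks were compared by position and presence alone, since the deposited lists gave no height or read number. A gene with a peak in all 4 IP libraries was the rule here, with 6 of 7. The share was 30.4% of all genes tested for expression and 50.8% of those whose mean FPKM was 10 or more. Neither share is a matched background, since the 7 genes lay at the 82.7th percentile of level or above. Their symbols also came from the peak lists, where a gene appears through its peaks, so a peak in at least 1 list was given. The exception was CTSS, which had no peak in Landrace replicate 1, the library with the fewest peaks and the input with the lowest CTSS level. The 7 genes together had 9 and 21 peaks in Landrace replicates 1 and 2 and 14 and 13 in Jinhua replicates 1 and 2. That followed the order of all peaks in part: 8909 and 19039 in the Landrace libraries and 20688 and 16116 in the Jinhua libraries. Per gene with a peak, the 7 genes had 1.5, 3, 2 and 1.857 peaks, against 1.857, 2.336, 2.357 and 2.191 over all genes.

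Where peaks overlapped on 1 transcript they were joined, which gave 20 sites. By the location that the lists give on the annotated transcripts, 14 were in coding sequence, 5 in a 3' UTR and 1 in a 5' UTR. A peak in all 4 libraries was found at 6 of the 20 sites, where the share over all 27320 sites was 18.5%. These 6 were split evenly between 3' UTRs and coding sequence. The share of the 7 genes' peaks in a 3' UTR was 33.33% and 28.57% in Landrace replicates 1 and 2. It was 42.86% and 46.15% in Jinhua replicates 1 and 2. Over all peaks the shares were 20.53%, 19.07%, 21.19% and 21.73% in the same order. The 7 genes had from 9 to 21 peaks a library. Abutting peaks of 1 site were counted apart, in Jinhua replicate 1 for example at bases 1282 to 1439 and 1440 to 1663 of CTSB and 869 to 1046 and 1047 to 1162 of CTSZ. The part of such splits in these shares was not counted.

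The 3' UTR sites shared by all 4 animals were on CTSB, CTSZ and CTSH. Positions are given in bases from the start of the annotated transcript, counted from 1. On CTSB (transcript ENSSSCT00000026923) the site ran from base 1282 to 1686, and bases 1290 to 1473 and 1516 to 1652 were covered in every library. On CTSZ (ENSSSCT00000008249) it ran from 869 to 1279, with bases 1056 to 1162 covered in every library. On CTSH (ENSSSCT00000001983) it ran from 1061 to 1282, with 1104 to 1217 covered in every library.

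The coding sites shared by all 4 animals were on CTSK and CTSL. CTSK (ENSSSCT00000007283) had 2 of them, at bases 1 to 142, where the peaks began at the first annotated base in every library, and at bases 443 to 740, with 531 to 603 covered in all 4. CTSL (ENSSSCT00000011983) had 1, at bases 109 to 386, where the 4 peaks had only 41 bases in common, 231 to 271. CTSK also had a 3' UTR site, at bases 925 to 1090, in Landrace replicate 2 and Jinhua replicate 2.

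PSAP and CTSS had no site in all 4 libraries. PSAP (ENSSSCT00000031700), the most highly expressed of the genes, had 4 sites, all labelled as coding sequence and none as a UTR. How much UTR the annotated transcript holds was not examined, so a lack of peaks in the UTRs of PSAP cannot be read from this. The site at bases 1253 to 1560 was found in 3 libraries, missing in Landrace replicate 1, and those at bases 8 to 190 and 901 to 1090 each in 1 animal of each breed. CTSS (ENSSSCT00000007284) had a coding site at bases 16 to 183 in the 3 libraries other than Landrace replicate 1, with 37 to 155 in common, and another at 574 to 729 in Landrace replicate 2 alone.

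Sites that followed breed were few. Peaks in both Landrace libraries and in neither Jinhua library were found at 2 of 20 sites, the 5' UTR site of CTSB at bases 1 to 130 and the PSAP site at bases 426 to 710, where the share over all sites was 2.32%. Peaks in both Jinhua libraries and in neither Landrace library were found at 1 of 20, the 3' UTR site of CTSL at bases 936 to 1136, where the share over all sites was 6.95%. CTSL was also the gene with the higher input level in both Jinhua animals, and the part of transcript level in the detection of this peak was not tested. With 2 animals a breed, no exact test of presence against breed can reach a p under 0.05.

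A single library held 4 of the 20 sites (20.0%), where the share over all 27320 sites was 36.7%. All 4 were in Landrace replicate 2: CTSB at bases 661 to 824, CTSH at 40 to 195, CTSS at 574 to 729 and CTSZ at 401 to 510. All 4 lay in coding sequence. How the single-library sites of all genes divided among the libraries was not counted. Landrace replicate 2 was the library with 21 of the peaks on these genes and the animal with the high muscle markers. The input level of CTSB and of CTSH was highest in it, whereas that of CTSS and of CTSZ was not.

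**Figure D4:**
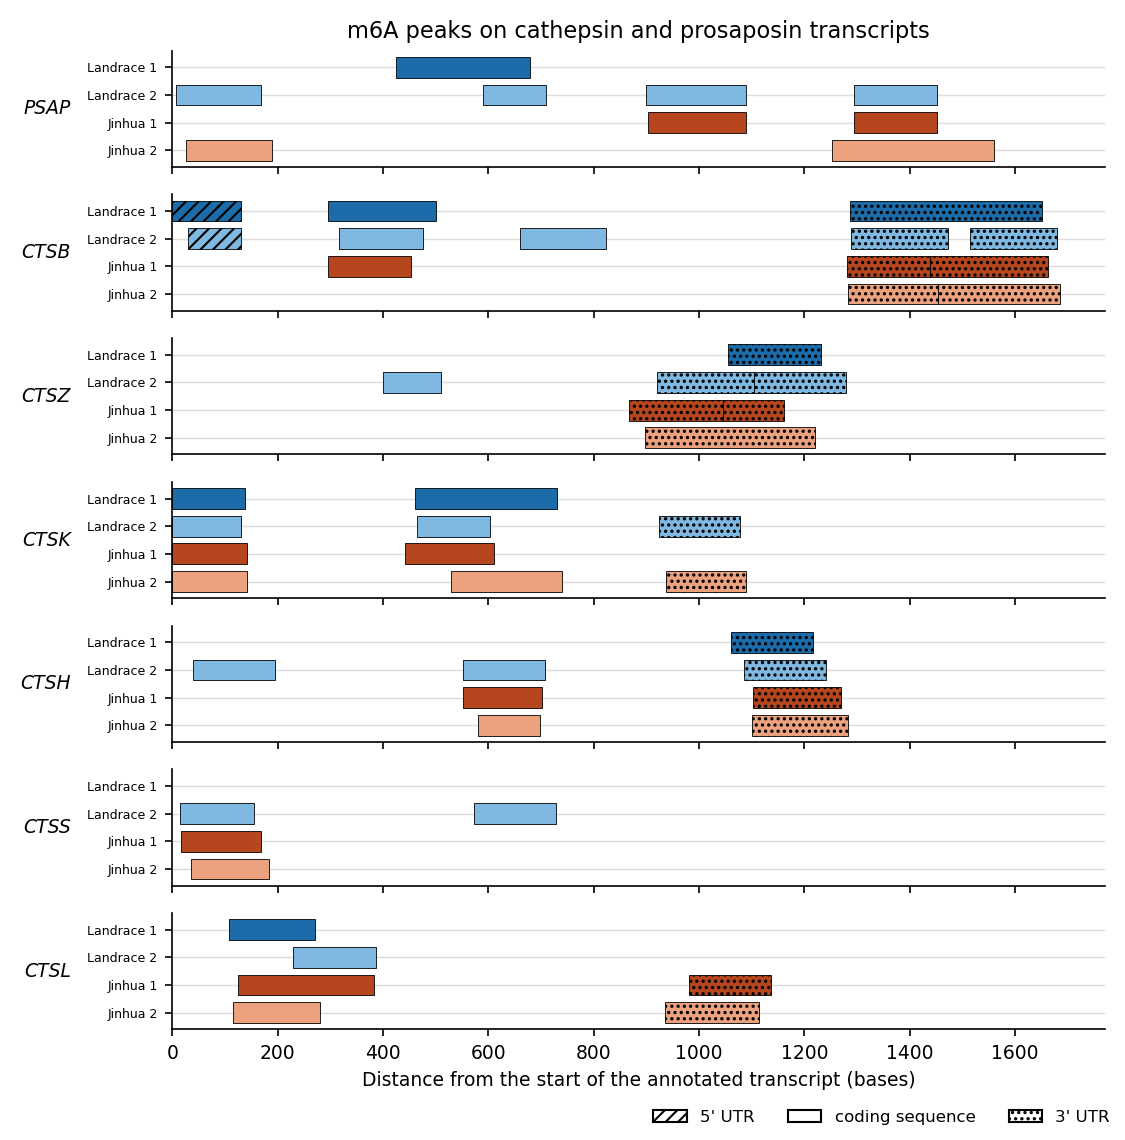
m6A peaks of each gene in the 4 IP libraries, drawn to scale by their distance in bases from the start of the annotated transcript; the fill marks 5' UTR (hatched), coding sequence (plain) and 3' UTR (dotted), and each row is 1 animal. CTSB, CTSZ and CTSH show a 3' UTR peak in all 4 animals, CTSL shows one in the 2 Jinhua animals, and CTSS shows no peak in Landrace replicate 1.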

How the data were processed

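The authors deposited 1 expression value per gene and input library, taken as FPKM because the values were neither whole nor logged and the gene column, per the file headers, has the name that Cufflinks writes; the unit itself is not named. They also deposited 1 peak list per IP library, with positions on transcripts and no score. TopHat2 2.0.14, Sscrofa10.2 and susScr3 appear, per the submitters' processing notes, without a stated role; the quantifier, peak caller and thresholds are not given in the sources used here. A further 4 expression columns and 4 peak lists match no sample described here and were not analysed here.

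Symbols came from the peak lists (7626 IDs) or else an Ensembl name table (5367); 9683 IDs had none. Breeds were compared with limma 3.58.1 in R 4.3.3 (mean-variance trend, two-sided, no replicate block) on log2(FPKM + 1), which understates changes of low genes, for genes with a mean FPKM of at least 1. Benjamini-Hochberg adjustment covered all 13693 genes, and the fit was tested on simulated data. No step that 1 read would leave was found in 423 low genes (at most 18 in 1 of 160 bins), so depth is unknown and no counting interval is given. The labels name 2 males a breed, so replicates were taken as separate animals. Peaks overlapping by at least 1 base on the same transcript were joined into sites.

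The members and lists were chosen with earlier results of these data known. Named were all members, the largest and smallest difference of each pathway list, the 2 most abundant of each marker list where described, and the 5 nearest profiles. The alternatives were other pseudocounts, filters, scalings and peak overlaps, no trend, a replicate block and leaving out each animal.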

Additional observations from a re-analysis of the deposited data

How the results depend on the processing

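None of the 7 genes was called in any of the 13 alternatives. CTSL stayed above 0 in all 13, and without 1 animal it ranged from 1.07 to 1.88. Most of the 13 could not have changed this sign. The filters, the trend and the blocks leave the difference between breed means as it is. Other pseudocounts and leaving out an animal keep the sign of a gene whose breeds do not overlap. Only median-ratio scaling and quantile normalization could have reversed it, and CTSL stayed above 0 under both. The other 6 each changed sign at least once, and without 1 animal the log2 difference ranged from -0.46 to 0.17 for PSAP, from -0.50 to 0.57 for CTSB, from -0.75 to 0.02 for CTSZ, from -0.36 to 0.90 for CTSK, from -0.50 to 0.51 for CTSH and from -0.17 to 1.53 for CTSS. CTSH also turned to -0.07 without Jinhua replicate 1 alone. Median-ratio scaling gave -0.15 for CTSB and -0.17 for CTSH, and quantile normalization gave -0.10 and -0.07. Leaving out an animal leaves 1 in its breed, which is then assumed to vary like the other breed.

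Over all genes the count of 5 calls was 7 with a pseudocount of 0.1, 6 with a mean FPKM of at least 5, 5 under quantile normalization and 0 with a pseudocount of 5, no filter, median-ratio scaling, no mean-variance trend or a replicate block, and 0 to 0 without any 1 animal. In those settings 138 to 1482 genes were higher and 196 to 1246 lower at an unadjusted p under 0.05, and the cause was not tested. The labels do not say whether replicate numbers pair the animals. Across genes, the deviations of same-numbered animals had a correlation of -0.384, which cannot settle this with 2 animals a breed. With the block 320 genes were higher and 375 lower at an unadjusted p under 0.05 by limma. The crossed pairing, added after seeing the data, gave 0 calls, with 861 higher and 742 lower at that unadjusted p. The 6 sites found in all 4 libraries were 6 under each overlap alternative. A minimum peak width of 100 bases removed no peak of these genes, the narrowest being 100 bases, so it was no check. Without 1 library, 6 to 9 sites were in all 3 remaining libraries, with 9 without Landrace replicate 1. That count could not fall below 6. Unknown read depth limits every statement that a peak was missing.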

Other observations

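The following genes of the pathway lists were picked out after their values were seen. The 5 of 12 proton pump IDs that were higher in both Jinhua animals, beside 30.2% of all tested genes, were ATP6V1A, ATP6V1C1, ATP6V1D, ATP6V1E1 and ATP6V1H, which encode subunits of the cytosolic V1 sector that splits ATP. The breeds overlapped for other V1 subunits, such as ATP6V1B2 and ATP6V1F. ATP6V1E1 stood at 94.1 and 123.3 FPKM in the Landrace pair, against 207.4 and 190.2 in the Jinhua pair (log2 difference 0.88, limma, adjusted p 0.496). GRN, which encodes progranulin, a binding partner of prosaposin, stood at 234.3 and 211.9 FPKM in the Landrace pair, against 121.9 and 151.4 in the Jinhua pair (log2 difference -0.71, limma, adjusted p 0.511). Peaks in all 4 IP libraries were found on 43 of the 67 pathway IDs, and on 41 of the 54 with a mean FPKM of at least 10, where the share over all such genes was 50.8%. That share is no matched background. Many pathway IDs were found through symbols in the peak lists, where a gene appears through its peaks, and levels were not matched. TFEB, a regulator of lysosomal genes, had peaks in both Landrace libraries (1 and 3) and none in either Jinhua library, and its FPKM was lower in both Jinhua animals.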
